A study of Homo sapiens with 12 samples.

Results

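The genes described here are 10 feedback genes of the RAS-ERK mitogen-activated protein kinase (MAPK) pathway: DUSP1, DUSP4, DUSP5, DUSP6, SPRY2, SPRY4, SPRED1, SPRED2, ETV4 and ETV5. They were matched by symbol, and 10 of 10 were found among the 58288 gene identifiers of the count table. RNA was measured in MV3, 1 established human melanoma line from a lymph node metastasis. All cells were held for 3 h in RPMI with 1% serum and then for 24 h in the test medium, with 3 samples per group and 12 in all. Ctrl cells received fresh RPMI, which no cell had conditioned. M0 cells received medium from THP-1 monocytic cells that the phorbol ester PMA had turned into macrophages. For M1 medium the PMA-treated THP-1 cells were then given lipopolysaccharide and interferon gamma, and for M2 medium interleukin 4 and interleukin 13. PMA is thus shared by the source cells of all 3 conditioned media, and how much of any stimulant remained in the media was not measured. A comparison with Ctrl therefore holds the effect of conditioning as a whole, and the 3 such comparisons use the same Ctrl samples.

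ERK signalling, driven through RAS, RAF and MEK, switches on genes whose products damp the pathway. Dual-specificity phosphatases (DUSP) remove phosphates from MAP kinases, Sprouty (SPRY) and SPRED proteins act further up, near RAS and RAF, and the PEA3-family ETS factors ETV4 and ETV5 carry the ERK signal into transcription. In melanoma, where BRAF or NRAS is often mutated, RNA levels of several of these genes are used as a readout of ERK activity.

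The DUSP members share the catalytic signature of their family, and the coding stretch around it is shown because 3 of these related genes rose to different heights in the same cells. The stretches are 36 bases long, taken from GENCODE 29 transcripts, with the codon of the catalytic cysteine in capitals.
DUSP1: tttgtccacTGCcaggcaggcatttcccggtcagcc
DUSP5: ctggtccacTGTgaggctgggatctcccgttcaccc
DUSP6: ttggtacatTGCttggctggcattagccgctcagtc
DUSP1 and DUSP5 had the same base at 27 of 36 positions, DUSP1 and DUSP6 at 26, and DUSP5 and DUSP6 at 23. No 50-base word of the DUSP1, DUSP4, DUSP5, SPRY2, SPRY4 or SPRED2 transcripts occurred in a transcript of another gene. The share of such words was 37.1% in DUSP6, through the antisense gene AC024909.2, 1.96% in ETV5, 1.56% in SPRED1 and 0.609% in ETV4. AC024909.2 stood at a mean of 0 CPM (the count scaled to the library's size) in Ctrl, M0 and M1 and at 0.0118 CPM in M2.

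Promoter windows of 250 bases before the start were found in RefSeq on GRCh38.p14 for 6 members, 9 windows in all. A window is shown for DUSP1, which rose in each conditioned medium, and 1 of 3 for SPRY2, which did not rise in any, chosen for its motif. The DUSP1 window lies at chr5:172771196-172771445 on the minus strand, and capitals mark a cyclic AMP response element, TGACGTCA, at -125 to -118.
DUSP1: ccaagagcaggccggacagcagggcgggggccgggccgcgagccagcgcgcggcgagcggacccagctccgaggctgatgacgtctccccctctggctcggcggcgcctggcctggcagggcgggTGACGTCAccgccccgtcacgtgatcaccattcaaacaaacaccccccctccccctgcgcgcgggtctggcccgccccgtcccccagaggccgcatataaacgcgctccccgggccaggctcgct
The SPRY2 window shown lies at chr13:80341127-80341376 on the minus strand, and capitals mark an ETS core site, CCGGAA, at -142 to -137.
SPRY2: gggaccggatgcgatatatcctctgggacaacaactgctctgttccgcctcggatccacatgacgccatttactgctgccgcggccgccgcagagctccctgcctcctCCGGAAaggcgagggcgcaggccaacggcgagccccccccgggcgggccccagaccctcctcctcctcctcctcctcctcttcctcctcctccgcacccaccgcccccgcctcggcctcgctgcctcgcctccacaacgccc
On both strands, TGACGTCA was found in 1 of 9 member windows and in 1.65% of all 35114 windows, and CCGGAA in 1 of 9 and in 14.5%. The AP-1 site TGANTCA was in 0 of 9 member windows and 6.57% of all windows. The CArG box, CC and GG around 6 bases that are each A or T, was in 0 of 9 and 1.16%. The amino acid response element TGATGNAA was in 1 of 9, a window of SPRED2, and 3.14%. A loose NF-kB pattern, 3 G, any 5 bases and 2 C, was in 6 of 9 and 54.4%, and its hits can overlap each other. These are matches of letters and not measured binding sites.

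The 12 libraries held 21788397 to 42921242 counts, and the members had 636 to 17207 counts in a library, so counting error was small for all of them. All 10 passed the filter on low counts. M0 replicate 3 stood apart from the other M0 libraries in several members, and the calls of members that ended without it are named. On the log2 scale it differed from the mean of the other M0 libraries by -0.51 in DUSP4, 0.41 in SPRY4, 0.29 in DUSP6 and 0.20 in ETV5. Of 7 melanocyte lineage markers 1 passed the filter, MITF, at 1.17 to 3.10 CPM in the group means, and TYR had 0 counts in every library. The summed level of the 7 was 0.837 to 1.5 CPM in Ctrl, 3.02 to 3.37 in M0, 1.88 to 2.43 in M1 and 2.16 to 2.33 in M2, so these MV3 cells lacked most defining melanocyte transcripts. Of 5 markers of neural crest and dedifferentiated melanoma 3 passed the filter, AXL, S100A4 and TFAP2A. NGFR had 5 counts over all libraries and S100B had 0. The summed level of the 5, most of it AXL, was 2280 to 2950 CPM in Ctrl, 2110 to 2220 in M0, 1200 to 1310 in M1 and 1780 to 1860 in M2. The part of either marker list in the results was not tested. Of 10 macrophage markers 0 passed, with summed levels of 0.25 to 0.845 CPM over all libraries.

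Conditioned medium was first compared with fresh medium. Of the 10 genes, 7 rose in all 3 conditioned media (DUSP1, DUSP5, DUSP6, SPRY4, SPRED2, ETV4 and ETV5) and DUSP4 fell in all 3. Over all 14088 genes tested, 22.8% rose in all 3 and 21.6% fell in all 3. M0 against Ctrl called 8 of the 10 at an adjusted p under 0.05, 7 higher and 1 lower, where 61.7% of all genes were called, 31.1% higher and 30.6% lower. M1 against Ctrl called 10, 7 higher and 3 lower, where 70.2% of all genes were called, 35.2% higher and 35.0% lower. M2 against Ctrl also called 10, 7 higher and 3 lower, beside 66.5% of all genes, 34.1% higher and 32.4% lower. The groups did not overlap in 8, 10 and 10 of the members in M0, M1 and M2 against Ctrl, and in 64.4%, 71.3% and 71.5% of all genes. The median log2 fold change of the 10 was 0.67 in M0, 0.64 in M1 and 0.62 in M2, and over all genes 0.004, -0.0038 and 0.021. Calls are common in these comparisons, so the number of members called says little, and the sizes below carry the description.

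**Figure D1:**
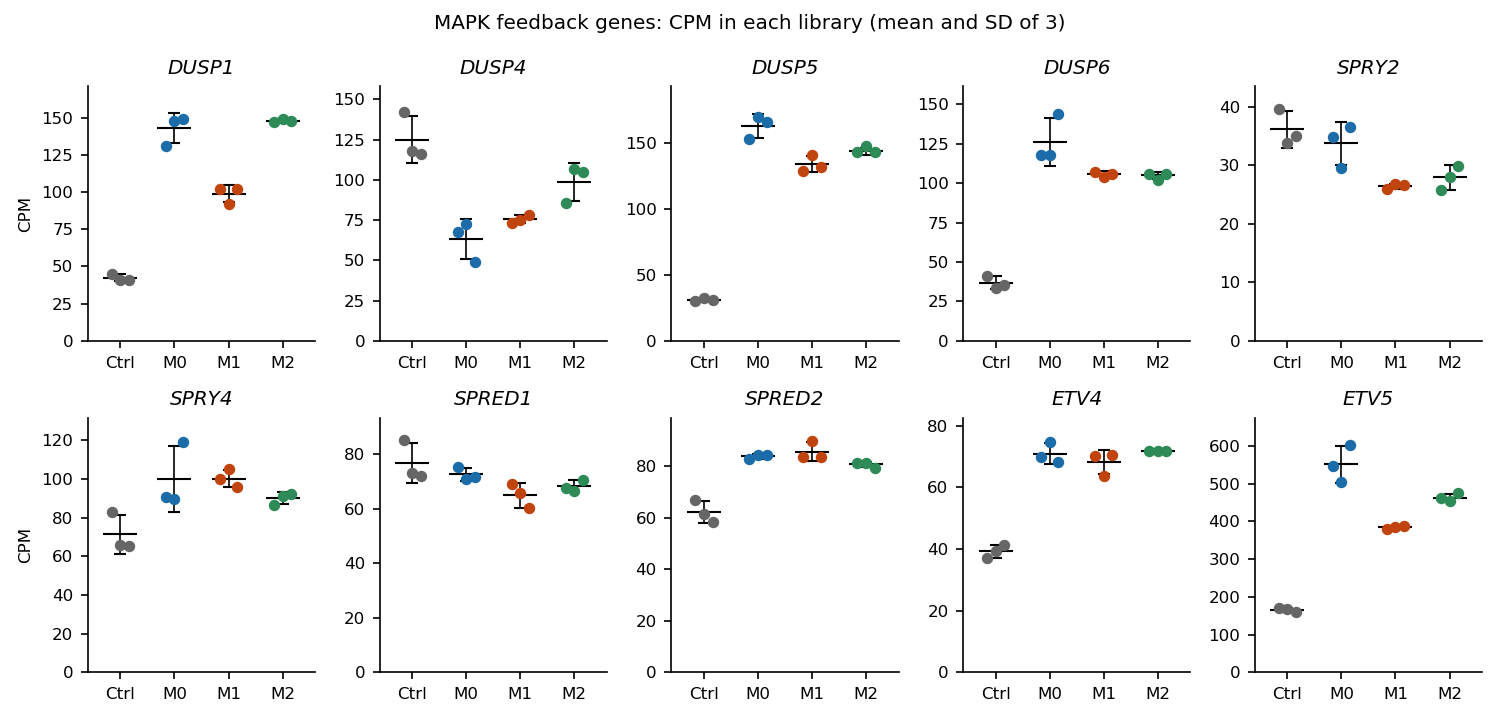
Level of each of the 10 genes in the 12 libraries, in TMM-scaled CPM on axes that start at 0; points are libraries, and lines are the mean and SD of 3. DUSP1, DUSP5, DUSP6 and ETV5 rise well clear of Ctrl in every conditioned medium, DUSP4 is highest in Ctrl, and the SPRY2 and SPRED1 means are lower in each conditioned medium than in Ctrl.

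DUSP5, a nuclear phosphatase that acts on ERK (chr10:110497838-110511544, plus strand, GRCh38), showed the largest fold change of the 10 in each medium. Its level was 30.5, 32.6 and 31.1 CPM in Ctrl replicates 1 to 3 and 153, 170 and 166 CPM in M0. It was 129, 141 and 132 CPM in M1 and 143, 148 and 143 CPM in M2. Every conditioned library was thus far above every Ctrl library, and M0 lay above both polarized media. DUSP5 rose 5.18-fold in M0 (log2 2.37 ± 0.055 SE, adjusted p = 1.33e-13), 4.26-fold in M1 (2.09 ± 0.046, adjusted p = 2.3e-13) and 4.6-fold in M2 (2.2 ± 0.032, adjusted p = 2.74e-13).

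DUSP1, an immediate-early nuclear phosphatase that acts on p38 and JNK as well as ERK (chr5:172768090-172771195, minus strand), separated M1 from the other conditioned media. It was at 45.1, 40.9 and 41.1 CPM in the Ctrl libraries and 131, 148 and 149 CPM in the M0 libraries. The M1 libraries had 102, 92.1 and 102 CPM, and the M2 libraries 147, 149 and 148. M0 and M2 overlapped, M1 lay between them and Ctrl, and no M1 library reached the lowest M0 library. The rise over Ctrl was 3.37-fold in M0 (log2 1.75 ± 0.075 SE, adjusted p = 1.21e-11), 2.33-fold in M1 (1.22 ± 0.067, adjusted p = 4.2e-10) and 3.49-fold in M2 (1.80 ± 0.046, adjusted p = 7.58e-12).

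DUSP6, a cytoplasmic phosphatase selective for ERK (chr12:89347232-89353271, minus strand), was at 41.4, 33.5 and 35.7 CPM in Ctrl and 118, 118 and 144 CPM in M0. It was at 107, 104 and 106 CPM in M1 and 106, 102 and 106 CPM in M2. M1 and M2 overlapped, and M0 replicate 3 was the highest library. DUSP6 rose 3.42-fold in M0 (log2 1.77 ± 0.13 SE, adjusted p = 1.59e-10), 2.86-fold in M1 (1.52 ± 0.091, adjusted p = 4.98e-10) and 2.83-fold in M2 (1.5 ± 0.092, adjusted p = 8.73e-10). DUSP6 is overlapped by AC024909.2, and the strand setting of the counting is not given in the sources used here.

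DUSP4, a nuclear phosphatase of ERK and JNK on chromosome 8, moved against the other DUSP members. Ctrl replicates 1 to 3 had 142, 118 and 116 CPM, and the M0 libraries had 67.8, 72.6 and 49.3. M1 had 73.3, 75.4 and 78.1 CPM and M2 85.4, 107 and 105. The order was M0, M1, M2 and Ctrl from lowest to highest with no overlap between neighbours, but the lowest step, M0 to M1, did not pass the test. DUSP4 fell by 0.99 in log2 in M0 (SE 0.20, adjusted p = 5.56e-06), by 0.73 in M1 (SE 0.098, adjusted p = 7.13e-05) and by 0.34 in M2 (SE 0.14, adjusted p = 0.0216). The M2 call against Ctrl ended without Ctrl replicate 1 (log2 -0.26, adjusted p = 0.0927) and without M2 replicate 1 (-0.26, adjusted p = 0.0963). In a bulk measurement, fewer cells that express a gene and less RNA per cell cannot be told apart.

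**Figure D2:**
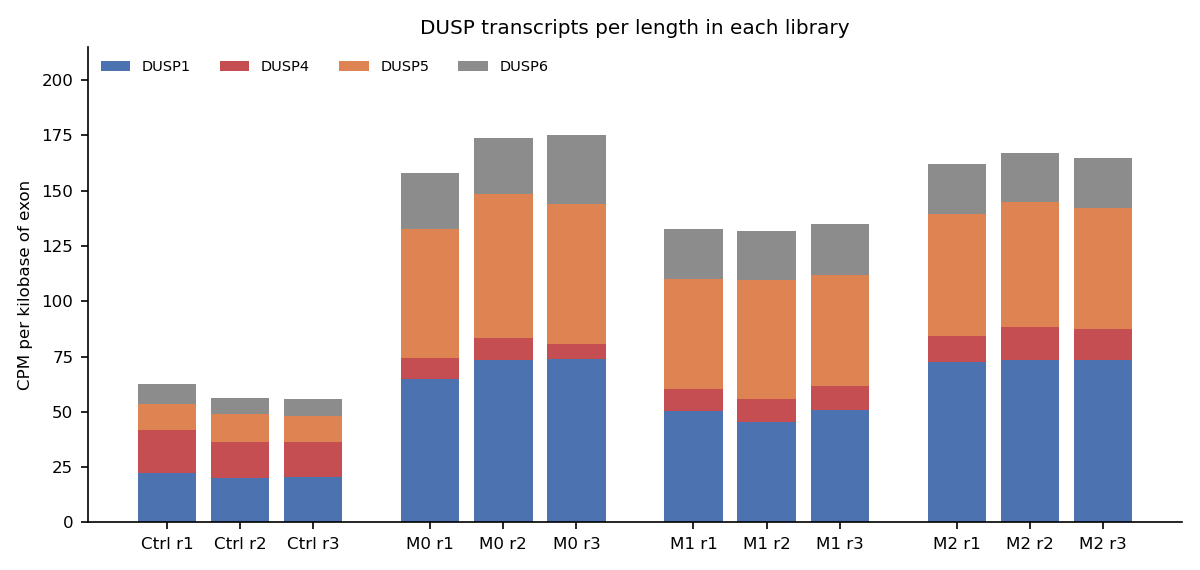
Level per length of DUSP1, DUSP4, DUSP5 and DUSP6 in each library, in CPM per kilobase of exon, stacked so that the bar height is their sum; r1 to r3 are the replicates. The sum is 58.2 in Ctrl and 169, 133 and 165 in M0, M1 and M2, while the DUSP4 part shrinks.

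Per length of transcript, the make-up of the DUSP pool shifted. The summed level of the 4 genes was 58.2 ± 3.78 CPM per kilobase in Ctrl (SD, n = 3), 169 ± 9.54 in M0, 133 ± 1.53 in M1 and 165 ± 2.52 in M2. DUSP4 made up 29.6% ± 1.48 of this sum in Ctrl, 5.18% ± 1.12 in M0, 7.82% ± 0.199 in M1 and 8.27% ± 0.865 in M2. The DUSP5 share was 20.7% ± 1.82 in Ctrl, 36.8% ± 0.603 in M0, 38.3% ± 1.97 in M1 and 33.5% ± 0.462 in M2. Thus DUSP1 and DUSP4 were the leading DUSP transcripts per length in fresh medium, and DUSP1 and DUSP5 in each conditioned medium. DUSP1 held 36.1%, 41.8%, 36.7% and 44.5% in Ctrl, M0, M1 and M2, and DUSP6 13.7%, 16.1%, 17.1% and 13.7%. These ranks depend on the exon lengths used. By CPM alone, DUSP4 stood above DUSP1 in Ctrl (125 and 42.4), and DUSP6 above DUSP1 in M1 (106 and 98.8).

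ETV5, an ETS-family transcription factor (chr3:186046308-186110318, minus strand), had the highest level per length of the 10 in each group, at 28.6, 95.1, 66.2 and 79.8 CPM per kilobase in Ctrl, M0, M1 and M2. The Ctrl libraries held 171, 167 and 160 CPM of it and the M0 libraries 547, 505 and 603. The M1 libraries held 379, 384 and 389 CPM and the M2 libraries 461, 453 and 474. The 4 groups were in the order Ctrl, M1, M2 and M0 with no overlap between any of them. ETV5 rose 3.33-fold in M0 (log2 1.73 ± 0.079 SE, adjusted p = 7.2e-12), 2.31-fold in M1 (1.21 ± 0.031, adjusted p = 2.46e-10) and 2.79-fold in M2 (1.48 ± 0.035, adjusted p = 3.79e-11). DGKG overlaps ETV5 on the same strand and was at 0.158 to 0.739 CPM in the group means.

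ETV4, a close relative of ETV5 (chr17:43527844-43579620, minus strand), rose in every conditioned medium. Its Ctrl level was 37.1, 39.3 and 41.3 CPM, and M0 libraries had 69.9, 74.6 and 68.2. With M1 medium it was 70.0, 63.8 and 70.6 CPM, and with M2 medium 71.7, 71.8 and 71.6. The lowest conditioned library was above the highest Ctrl library, and differences among the conditioned media did not pass. The log2 rise was 0.85 ± 0.06 SE in M0 (adjusted p = 2.4e-08), 0.80 ± 0.065 in M1 (adjusted p = 2.69e-08) and 0.87 ± 0.045 in M2 (adjusted p = 1.46e-08). DHX8, which overlaps ETV4 on the opposite strand, was at 79.6 CPM in Ctrl and 47.1, 49.9 and 42.6 CPM in M0, M1 and M2, the other direction from ETV4.

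Among the Sprouty genes, which restrain receptor signalling to RAS, SPRY4 and SPRY2 went apart. SPRY4 (chr5:142310427-142326455, minus strand) was at 82.9, 65.6 and 65.3 CPM in Ctrl and 90.5, 89.3 and 119 CPM in M0. It was at 99.7, 105 and 96.0 CPM in M1 and 86.4, 91.3 and 92.0 CPM in M2. Each conditioned library lay above the highest Ctrl library, the lowest M2 library only narrowly. SPRY4 rose by log2 0.48 ± 0.18 SE in M0 (adjusted p = 0.00119), 0.49 ± 0.12 in M1 (adjusted p = 0.000804) and 0.33 ± 0.12 in M2 (adjusted p = 0.013). The M2 call ended without Ctrl replicate 2 (log2 0.26, adjusted p = 0.0696) or Ctrl replicate 3 (0.26, adjusted p = 0.0664).

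SPRY2 (chr13:80335976-80340951, minus strand) was at 39.6, 33.7 and 35.0 CPM in Ctrl and 34.8, 29.6 and 36.6 CPM in M0, which overlapped. It was at 25.9, 26.7 and 26.6 CPM in M1 and 25.8, 27.9 and 29.9 CPM in M2, below every Ctrl library. SPRY2 did not pass in M0 (log2 -0.10 ± 0.12 SE, adjusted p = 0.35). It fell by 0.45 in log2 in M1 (SE 0.072, adjusted p = 0.000324) and by 0.38 in M2 (SE 0.095, adjusted p = 0.00172).

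The SPRED genes, whose products bind neurofibromin and restrain RAS, also parted. SPRED2 (chr2:65310851-65432637, minus strand) had 66.8, 61.4 and 58.4 CPM in the Ctrl libraries and 82.8, 84.3 and 84.5 with M0 medium. With M1 medium it had 83.5, 90.0 and 83.5 CPM, and with M2 medium 81.4, 81.1 and 79.5. Every conditioned library stood above Ctrl, and it rose by log2 0.43 ± 0.057 SE in M0 (adjusted p = 2.14e-05), 0.46 ± 0.067 in M1 (adjusted p = 6.45e-06) and 0.37 ± 0.057 in M2 (adjusted p = 6.55e-05). SPRED1 (chr15:38252326-38357249, plus strand) had 85.3, 73.3 and 72.2 CPM in the Ctrl libraries and 75.4, 70.9 and 71.5 with M0 medium. With M1 medium it had 69.0, 65.7 and 60.2 CPM, and with M2 medium 67.8, 66.4 and 70.5. Ctrl replicate 1 was its highest library, and Ctrl and M0 overlapped.

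SPRED1 did not pass in M0 (log2 -0.084 ± 0.082 SE, adjusted p = 0.335), fell by 0.25 in log2 in M1 (SE 0.096, adjusted p = 0.00731) and fell by 0.17 in M2 (SE 0.081, adjusted p = 0.0478). The M1 call ended without M1 replicate 3 (log2 -0.19, adjusted p = 0.0509). The M2 call ended without Ctrl replicate 1 (-0.11, adjusted p = 0.146), M2 replicate 1 (-0.18, 0.0769), M2 replicate 2 (-0.15, 0.139) or M2 replicate 3 (-0.20, 0.0636). The difference was as large without M2 replicate 1 or 3, and smaller without Ctrl replicate 1.

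**Figure D3:**
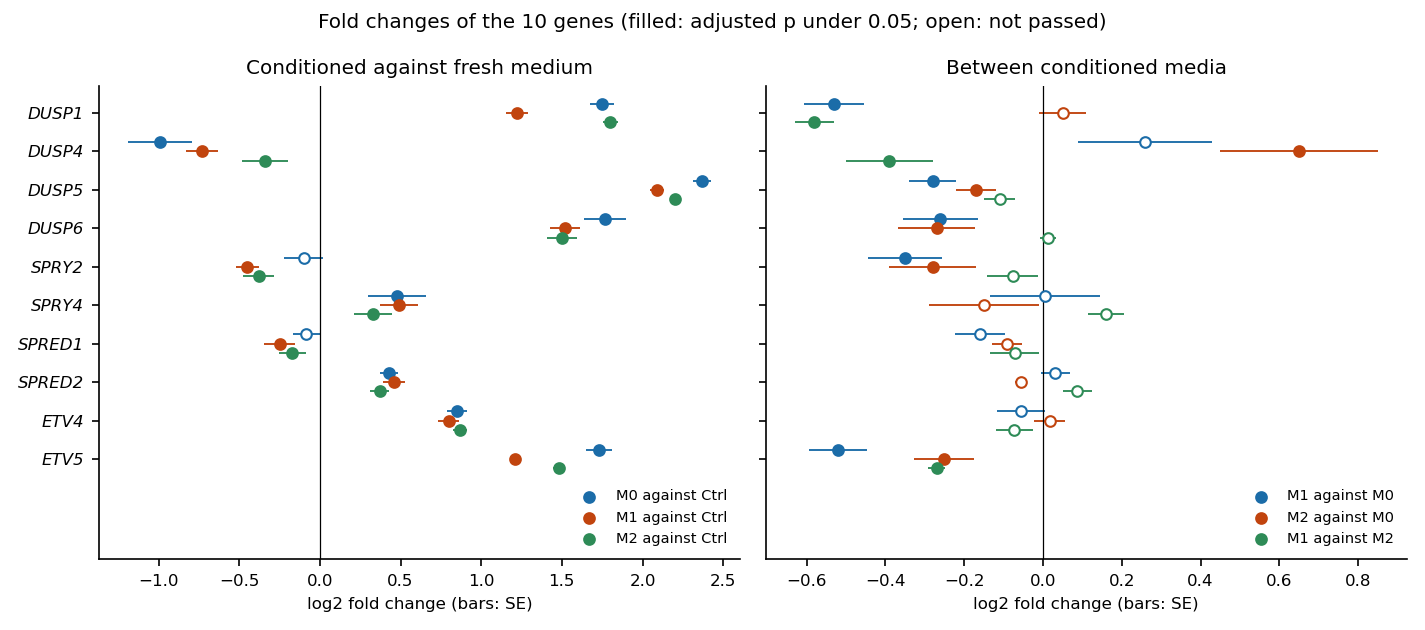
Log2 fold change of each gene, from edgeR, in the 3 comparisons with Ctrl (left) and the 3 between conditioned media (right); filled points passed at an adjusted p under 0.05, open points did not, and bars are the SE from the spread of 3 and 3 libraries. The right axis covers a much smaller range than the left, and DUSP4 lies opposite most other genes in the comparisons with Ctrl and with M0.

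Polarization was then examined by setting M1 against M0, which share the same starting macrophages but for lipopolysaccharide and interferon gamma. Of the 10 genes, 5 fell (DUSP1, DUSP5, DUSP6, SPRY2 and ETV5), 0 rose and 5 did not pass, where 52.2% of all genes were called, 25.5% higher and 26.7% lower. The groups did not overlap in 7 members and in 59.2% of all genes. The share of members called is near that of all genes. The median log2 fold change was -0.21 for the 10 and -0.011 for all genes.

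DUSP1 fell by 0.53 in log2 (SE 0.077, adjusted p = 1.28e-05), from 143 ± 9.88 to 98.8 ± 5.77 CPM. ETV5 fell by 0.52 (SE 0.074, adjusted p = 9.55e-06), from 552 ± 49 to 384 ± 4.97 CPM. SPRY2 fell by 0.35 (SE 0.093, adjusted p = 0.00426), and DUSP5 by 0.28 (SE 0.06, adjusted p = 0.00108). In each of these genes every M1 library lay below every M0 library, yet DUSP1, DUSP5 and ETV5 stayed above Ctrl.

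DUSP6 fell by 0.26 (SE 0.096, adjusted p = 0.0179), but leaving out M0 replicate 3 gave log2 -0.14 (adjusted p = 0.154) and leaving out M1 replicate 2 gave -0.24 (adjusted p = 0.0519), which no longer passed. DUSP4 was at 75.6 ± 2.41 CPM in M1 and 63.2 ± 12.3 in M0 and did not pass (log2 0.26 ± 0.17 SE, adjusted p = 0.0915), although the groups did not overlap. Without M0 replicate 2 it passed (log2 0.39, adjusted p = 0.0227), and without a filter on low counts as well (0.28, adjusted p = 0.00252). SPRY4, SPRED1, SPRED2 and ETV4 did not pass, with log2 fold changes of 0.0054, -0.16, 0.031 and -0.056.

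M2 against M0 was read in the same way, for medium of macrophages given interleukin 4 and interleukin 13. DUSP4 was the only member that rose here. Of the 10 genes, 1 rose and 4 fell (DUSP5, DUSP6, SPRY2 and ETV5), beside 25.2% of all genes called, 12.5% higher and 12.7% lower. The groups did not overlap in 6 members and in 46.5% of all genes. The median log2 fold change was -0.12 for the 10 and 0.00092 for all genes.

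DUSP4 rose 1.56-fold (log2 0.65 ± 0.20 SE, adjusted p = 0.00268), from 63.2 ± 12.3 to 98.9 ± 11.8 CPM, and this call was kept in each of the 20 alternative settings, with log2 0.44 to 0.75 and adjusted p up to 0.0491. The 4 falls did not hold in that way. ETV5 fell by 0.25 (SE 0.076, adjusted p = 0.0106), and the call ended without M0 replicate 3 (log2 -0.18, adjusted p = 0.0608) and without M2 replicate 2 (-0.24, 0.0515). DUSP6 fell by 0.27 (SE 0.097, adjusted p = 0.0288), at -0.16 without M0 replicate 3 (0.177), and it did not pass without any single M2 library either (0.062, 0.0998 and 0.0734 without replicates 1, 2 and 3).

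SPRY2 fell by 0.28 (SE 0.11, adjusted p = 0.0372) with overlapping groups, and did not pass without M0 replicate 1 (adjusted p = 0.112), M0 replicate 3 (0.177), M2 replicate 1 (0.138) or M2 replicate 2 (0.0968), nor with library totals in place of TMM scaling (0.0554). DUSP5 fell by 0.17 (SE 0.05, adjusted p = 0.0479) and did not pass in 13 of the 20 alternative settings, where the log2 value was -0.21 to -0.14 over all 20. Without M0 replicate 3, and likewise without M2 replicate 2, DUSP4 alone was called, so 1 of the 10 in place of 5. Calls over all genes dropped as well, from 3553 to 1595 without M0 replicate 3 and to 1933 without M2 replicate 2. DUSP1 stood at 148 ± 1.04 CPM in M2 and 143 ± 9.88 in M0 (log2 0.05 ± 0.059 SE, adjusted p = 0.616). SPRY4, SPRED1, SPRED2 and ETV4 did not pass either, with log2 fold changes of -0.15, -0.09, -0.056 and 0.017.

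M1 and M2 were compared directly as well. Of the 10 genes 3 were called, all lower in M1, where 32.5% of all genes were called, 15.9% higher and 16.6% lower. The groups did not overlap in 7 members and in 50.1% of all genes. DUSP1 was lower in M1 by log2 -0.58 (SE 0.05, adjusted p = 8.78e-06) and ETV5 by -0.27 (SE 0.022, adjusted p = 0.00465). DUSP4 was lower by -0.39 (SE 0.11, adjusted p = 0.0251), and the call ended without M1 replicate 1 (log2 -0.35, adjusted p = 0.0868), M1 replicate 2 (-0.37, 0.0652), M2 replicate 2 (-0.33, 0.0939) or M2 replicate 3 (-0.34, 0.0893). The other 7 did not pass, and DUSP6 stood at 106 ± 1.39 CPM in M1 and 105 ± 2.29 in M2.

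**Figure D4:**
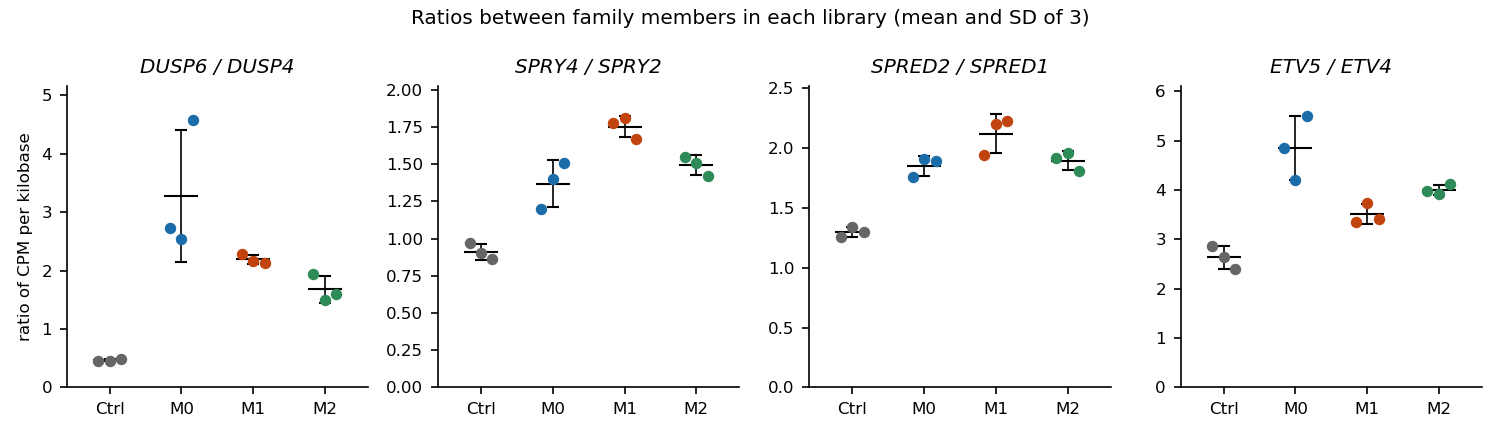
Ratio of CPM per kilobase between 2 genes of a family in each library, on axes that start at 0; points are libraries, lines the mean and SD of 3. Each ratio is higher in every conditioned medium than in Ctrl, and M0 replicate 3 has the highest DUSP6 to DUSP4 ratio, 4.57.

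Because relatives moved differently, the ratio of their levels per length was taken within each library, which does not depend on the scaling between libraries. DUSP6 to DUSP4 was 0.457, 0.447 and 0.483 in the Ctrl libraries and 2.72, 2.54 and 4.57 with M0 medium. With M1 medium it was 2.28, 2.16 and 2.13, and with M2 medium 1.94, 1.5 and 1.6. DUSP6 was thus the scarcer of the pair per length in fresh medium and the more abundant in every conditioned library. By CPM alone, DUSP6 was below DUSP4 in M2 replicate 2 (102 and 107), so the order in that library rests on the exon lengths used. SPRY4 to SPRY2 was 0.911 ± 0.0531 in Ctrl, 1.37 ± 0.157 in M0, 1.75 ± 0.0737 in M1 and 1.49 ± 0.0666 in M2, so this pair also changed order per length. In CPM, SPRY4 was above SPRY2 in every group (71.3 and 36.1 in Ctrl), so that change of order rests on the exon lengths used. SPRED2 to SPRED1 was 1.3 ± 0.04, 1.85 ± 0.0814, 2.12 ± 0.159 and 1.9 ± 0.0777, and ETV5 to ETV4 was 2.64 ± 0.235, 4.86 ± 0.645, 3.51 ± 0.204 and 4.01 ± 0.101, in the same group order.

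In 24 comparisons of these ratios, 4 ratios in 6 pairs of groups, 21 had groups that did not overlap. The two-sided exact permutation p was 0.1 for these, the smallest that 3 against 3 samples allow, and 0.114 after Benjamini-Hochberg adjustment over the 24, so no ratio could pass on its own. The exceptions were SPRY4 to SPRY2 in M2 against M0 (exact p = 0.3), and SPRED2 to SPRED1 in M2 against M0 (exact p = 0.5) and in M1 against M2 (exact p = 0.2).

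Related genes were read from lists by family. The ETS list holds only factors linked to ERK and is not the whole ETS family. Of 6 other MAP kinase phosphatases 5 were tested, since DUSP9 was below the filter. In M1 against M0 4 of them rose and 0 fell (median log2 0.56), where 25.5% of all genes rose and 26.7% fell. DUSP10, which acts on p38 and JNK, rose from 7.56 to 14.3 CPM (log2 0.91, adjusted p = 6.86e-05). DUSP16, which acts mainly on JNK, rose from 37.3 to 55.1 CPM (log2 0.56, adjusted p = 3.86e-05). The others were DUSP7, which acts on ERK (log2 0.28), and DUSP8, which had only 0.413 CPM in M1 and 0.223 in M0.

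In M0 against Ctrl, 3 of these 5 phosphatases rose, DUSP16 (log2 0.97), DUSP10 (0.86) and DUSP2, and DUSP7 fell by 0.33, where 61.7% of all genes were called. DUSP2 was low, at 0.936 CPM in Ctrl and 1.44 in M0, and only just passed (adjusted p = 0.0464). In M2 against M0 DUSP7 alone rose (log2 0.36, adjusted p = 0.00805), where 12.5% of all genes rose. DUSP7 was lower in M0 replicate 3, at 52.7 CPM, than in M0 replicates 1 and 2, at 65.9 and 68.5 CPM. The M2 call ended with both M0 replicate 3 and M2 replicate 2 left out (log2 0.26, adjusted p = 0.0935).

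Of 3 other Sprouty and SPRED genes 2 were tested, since SPRY3 had 0 counts. SPRY1 was low, at 2.08 to 2.44 CPM in the group means, and passed in no comparison. SPRED3 fell by 0.45 in M0 against Ctrl (adjusted p = 0.0032), where 30.6% of all genes fell. It fell by 0.38 in M1 against M0 (adjusted p = 0.0122) with overlapping groups, where 26.7% of all genes fell. The M1 call ended without M0 replicate 1 (log2 -0.34), M0 replicate 3 (-0.30) or M1 replicate 2 (-0.23). Of 6 other ETS factors linked to ERK, 4 rose and 1 fell in M0 against Ctrl (median log2 0.74), where 31.1% of all genes rose and 30.6% fell. ETS2 was at log2 0.89, ELK3 at 0.81 and ETV1, the third PEA3-family factor, at -0.66. ETV1 thus fell where ETV4 and ETV5 rose.

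Among these ETS factors, 2 rose and 2 fell in M1 against M0, where 25.5% of all genes rose and 26.7% fell. They were ELK4 (log2 0.37), ETS1 (0.23), ETV1 (-0.29) and ELK1 (-0.25). In M2 against M0 ELK4 rose (0.33), and ETV1 (-0.35) and ETS2 (-0.28) fell, beside 25.2% of all genes called. ELK4 in M1 against M0 was the only one of these 7 calls that held in all 20 alternative settings. ETV1 kept its call in 9 of the 20 in M1 against M0 and in 13 in M2 against M0, and ETS1 was at log2 0.14 without M1 replicate 2 (adjusted p = 0.0941).

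Other genes that ERK is known to induce moved in both directions. Of 10 tested in M0 against Ctrl, 6 rose and 3 fell (median log2 1.1), where 31.1% of all genes rose and 30.6% fell. The immediate-early factor EGR1 rose from 6.45 to 88.0 CPM (log2 3.76, adjusted p = 1.27e-12), the small MAF factor MAFF by log2 2.39 and MYC from 70.9 to 265 CPM (log2 1.90, adjusted p = 1.42e-12). The ephrin receptor genes EPHA4 and EPHA2 fell by 1.05 and 0.64, and the cyclin gene CCND1 by 0.58 (adjusted p = 0.000116). The counts were also 6 and 3 in M1 against Ctrl, where 35.2% of all genes rose and 35.0% fell. They were again 6 and 3 in M2 against Ctrl, where 34.1% rose and 32.4% fell. In M1 against Ctrl FOSL1 fell (log2 -0.35), and CCND1 did not pass (-0.016, adjusted p = 0.895).

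In M1 against M0, 3 of these 10 rose and 5 fell, where 25.5% of all genes rose and 26.7% fell. EGR1 fell by 0.99 (adjusted p = 2.58e-06) and MYC by 0.68, whereas the cytokine gene LIF rose by log2 1.44 and the early-response gene IER3 by 0.96. In M2 against M0, CCND1 rose (log2 0.34), PHLDA1 (-0.45) and MYC (-0.24) fell, and 7 did not pass, beside 25.2% of all genes called. M0 replicate 3 stood apart in CCND1, at 336 CPM beside 423 and 437, and in PHLDA1, at 702 beside 594 and 489. Without it CCND1 was at log2 0.24 (adjusted p = 0.102), PHLDA1 at -0.31 (0.0764) and MYC at -0.22 (0.0529). These 3 calls also ended without M2 replicate 2 (0.0906, 0.0554 and 0.0651), and CCND1 without M2 replicate 3 (0.0865).

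Transcripts of the kinases themselves moved in both directions. Of 12 RAS, RAF, MEK and ERK cascade genes 6 rose and 5 fell in M0 against Ctrl (median log2 0.17), 3 rose and 4 fell in M1 against M0 (0.02), and 1 rose and 1 fell in M2 against M0 (0.0019). Over all genes 61.7%, 52.2% and 25.2% were called in these comparisons. The scaffold gene SHOC2 (log2 0.72) and BRAF (0.50) rose most in M0 against Ctrl, and ARAF (-0.48) and HRAS (-0.40) fell most. BRAF rose further in M1 against M0 (log2 0.36, adjusted p = 0.00069) and in M2 against M0 (0.29, adjusted p = 0.00972), the latter not without M2 replicate 3 (0.27, adjusted p = 0.0514).

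The scaffold gene KSR1 (log2 0.50) and MAP2K1, which encodes MEK1 (0.42), rose in M1 against M0, and HRAS (-0.52) and MAPK3, which encodes ERK1 (-0.40), fell. NRAS fell by 0.23 in M2 against M0, but not without M0 replicate 3 (log2 -0.16, adjusted p = 0.0791) or M2 replicate 3 (-0.23, 0.0557). Of 8 adaptors, exchange factors and GTPase activators, 1 rose and 3 fell in M0 against Ctrl, where 31.1% of all genes rose and 30.6% fell. The RAS exchange factor SOS2 was at log2 1.0, GRB2 at -0.44 and RASA2 at -0.24. In M1 against M0 4 rose and 0 fell, where 25.5% of all genes rose and 26.7% fell. In M2 against M0 3 rose and 0 fell, where 12.5% of all genes rose and 12.7% fell. SOS1, SOS2 and RASA2 rose in both, by log2 0.38, 0.38 and 0.37 in M1 and by 0.35, 0.24 and 0.27 in M2. RASA2 in M2 did not pass without M2 replicate 1 (adjusted p = 0.0509) or 2 (0.0616). SOS1 in M2 did not pass with both M0 replicate 3 and M2 replicate 2 left out (log2 0.25, adjusted p = 0.0885). SOS2 in M2 had an adjusted p of 0.0234, and its alternatives are not reported here.

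Of 8 tested p38 and JNK genes 3 rose and 2 fell in M0 against Ctrl, where 31.1% of all genes rose and 30.6% fell. Among them were MAPK11 (log2 0.70), MAP2K3 (0.43), MAPK14 (-0.77) and MAPK9 (-0.23). In M1 against M0 3 rose and 1 fell, where 25.5% of all genes rose and 26.7% fell. MAPK11 was at 0.47, MAPK14 at 0.26 and MAPK9 at -0.17, and MAPK9 kept its call in 8 of the 20 alternative settings. MAPK12 alone passed in M2 against M0 (log2 0.30), and in 15 of the 20, beside 25.2% of all genes called in that comparison. RNA levels of kinases give no measure of their phosphorylation, which was not assayed.

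**Figure D5:**
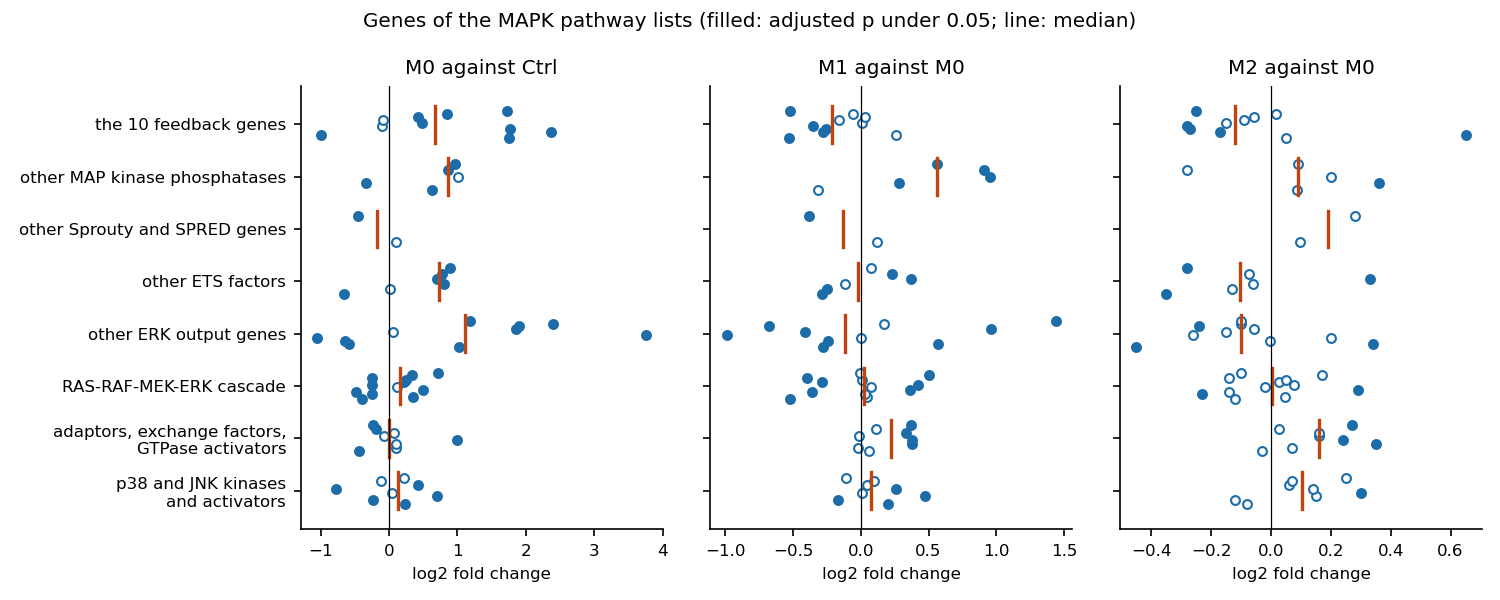
Log2 fold changes of the 10 feedback genes and of 7 lists of related genes in M0 against Ctrl, M1 against M0 and M2 against M0; each point is a gene, filled where the adjusted p was under 0.05, and the vertical line is the list's median. In M1 against M0 the other MAP kinase phosphatases have a median of 0.56 and the feedback genes one of -0.21.

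The genes closest to each member across the 12 libraries were ranked by Pearson's r of log2 CPM, as a description, since the libraries fall into 4 groups and share their scaling. DUSP5 was nearest to CEBPG (r = 0.9975), PPP1R15A and GARS, DUSP6 to TGIF1 (0.9979), XBP1 and CARS, and ETV4 to SMOX (0.9977), WDR45 and KCNG1. DUSP1 was nearest to NNMT (0.9942), TUFT1 and KLF4, and ETV5 to PXK (0.9965), BTG1 and AL050341.2. NNMT shows what likeness means here, at 37.5, 236, 153 and 284 CPM in Ctrl, M0, M1 and M2, the group order of DUSP1. DUSP4 was nearest to ST5 (0.9727), EPHB1 and CERK, SPRED2 to RHBDD1 (0.992), HSPA13 and STAG2, and SPRY2 to NUP155 (0.9464), IPO11 and PPP2R5E. Likeness was lower for SPRY4, nearest to AC112220.2 (0.9319), CTTNBP2NL and KLF6, and for SPRED1, nearest to TMEM209 (0.9068), SNHG3 and TAF2. Among the members, DUSP1 had r = 0.964 with DUSP5, 0.952 with DUSP6 and -0.655 with DUSP4.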

How the data were processed

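RNA of MV3 cells was measured in 12 libraries, 3 per group. Per the labels' protocols, the mRNA libraries were stranded and read as single 50 nt reads in more than 1 run, and the runs are merged in the files. Tools named in the submitters' processing notes are STAR 2.5.4b, Bowtie2 2.2.3, Trimmomatic 0.36, FastQC 0.11.7, DESeq2 1.20.0, and R (3.5.0 and 3.3.3), with build hg38. The counter, its strand setting and the annotation were not given in the sources used here, so reads of genes that overlap on opposite strands cannot be told apart. The authors deposited raw counts per gene and a table of log2-like variance-stabilized values, used here only for symbols and in an alternative test. The labels do not say whether replicates were separate cultures, so p-values measure only how these samples spread, and that spread may be technical.

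All 12 libraries entered 1 fit of group means in edgeR 4.0.16 under R 4.3.3 (quasi-likelihood F test, TMM scaling, filterByExpr with minimum count 10 and minimum total 15, Benjamini-Hochberg adjustment over 14088 genes, threshold 0.05). The code was tested on simulated data. CPM are TMM-scaled. SE come from log2 CPM (prior count 2) over 3 and 3 libraries and are thus another estimate than the edgeR fold change. Exon lengths and coordinates are from GENCODE 29 on GRCh38. A count of 0 allows up to 3 counts, 0.0699 to 0.138 CPM. All replicate pairs differed beyond sampling noise (chi-square per degree of freedom 3.18 to 28.1). Alternatives were DESeq2 1.42.0, limma 3.58.1 on the log2 values, other scalings, no filter, 6-library fits, a replicate block and libraries left out.

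The members and lists were chosen with earlier results of these data known. All members are named, with the 2 highest and 2 lowest called genes of each pathway list in M1 or M2 against M0 or in M0 against Ctrl, and the 3 genes nearest to each member by correlation. The rule for the lists set aside genes of very low level, such as DUSP8. Some list genes are given outside this rule, among them DUSP8, and MYC and CCND1 in M0 against Ctrl.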

Additional observations from a re-analysis of the deposited data

How the results depend on the processing

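Over 20 alternatives, 31 of 41 called values of the 10 genes (10 genes in 6 comparisons) kept their call, 10 lost it in at least 1 alternative and 0 reversed. Of 19 values that were not called, 4 were called in at least 1 alternative. Of 54 values of the pathway lists named by the rule above, 37 kept their call in all 20, 17 lost it in at least 1 and 0 reversed. List values given outside that rule are not in this count. The weak comparison was M2 against M0, with 5 genes called. It called 3 with library totals in place of TMM, from 1 to 5 with a library left out, and 1 with both M0 replicate 3 and M2 replicate 2 left out. Over all genes it called 3553, from 1595 to 4210 with a library left out, and 520 with both left out. Library totals moved the share of called genes that were higher from 49.7% to 60.3% in M2 against M0, and from 49.0% to 38.8% in M1 against M2.

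The values that changed sign were not called ones, the largest of them -0.15 (SPRY4 in M2 against M0). With library totals these were DUSP6 in M1 against M2 (log2 -0.033) and SPRY4 in M1 against M0 (-0.0052), and with both libraries left out ETV4 in M2 against M0 (-0.0086). With a library left out, DUSP1 in M2 against M0 ran from -0.0032 to 0.087, DUSP6 in M1 against M2 from -0.0055 to 0.035, SPRY4 from -0.051 to 0.17 in M1 against M0 and from -0.22 to 0.004 in M2 against M0, and ETV4 from -0.071 to 0.00025 in M1 against M0 and from -0.0066 to 0.052 in M2 against M0. The cause was not tested.

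Samples with the same replicate number were at most weakly alike: over 18 such pairs r was -0.0775 to 0.154, over 0.1 in 6. Still, 9 of 12 libraries correlated best with a library of their own number. Whether the numbers pair the samples was not tested. With the replicate number as a block the members called stayed at 8, 10 and 10 in M0, M1 and M2 against Ctrl, 5 in M1 against M0, 5 in M2 against M0 and 3 in M1 against M2.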
